A study of Mus musculus with 32 samples.

Results

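Gene expression was compared between day 6 and day 4 of reprogramming in the medium called S2, which combined a DOT1L inhibitor with 2i and held no ascorbic acid. The 4 libraries of this comparison were 2 from day 4 and 2 from day 6, out of 32 libraries of single-cell 3' RNA counts in 16 groups. They held 806 of the 7645 cells kept in all, after barcodes that the authors had listed as irradiated feeder fibroblasts were dropped. All starting cells were mouse embryonic fibroblasts (MEFs), plated on irradiated MEFs in serum medium with LIF. In S2 they received doxycycline at 2 ug/mL and SGC0946, the DOT1L inhibitor, at 5 uM, and 2i was added 12 h later, with the medium replaced on days 2 and 4. The 2i pair is CHIR-99021, a GSK3 inhibitor, and PD-0325901, a MEK inhibitor. 3 media with the same doxycycline dose are set beside S2. A2S added ascorbic acid at 50 ug/mL to the S2 mix, A2 held ascorbic acid and 2i without SGC0946, and AS held ascorbic acid and SGC0946 without 2i. Untreated MEFs and embryonic stem cells (ESCs) give reference levels. The labels describe no separate cultures behind the letters A and B. The p-values rest on the spread between libraries of a group, taken over all 16 groups, and this spread can be technical.

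DOT1L is the enzyme that methylates a lysine in the core of histone H3 over transcribed genes. Its inhibition is known to ease the shutdown of fibroblast genes during reprogramming. Blocking MEK damps ERK signalling, and blocking GSK3 stabilises beta-catenin. Together these support naive pluripotency in mouse ESCs. Ascorbic acid keeps iron in the reduced form that TET and JmjC demethylases need, and S2 lacks it. Fibroblasts on the way to pluripotency lose mesenchymal genes and gain epithelial ones before the core pluripotency network is fully expressed.

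The day 4 libraries A and B held 192 and 169 kept cells with 2829608 and 2342465 unique molecular identifiers (UMIs). At day 6 they held 237 and 208 cells with 3074948 and 2435140 UMIs. The median cell had 14071.5 and 14014 UMIs at day 4 and 12930 and 11295.5 at day 6. No barcode was shared between these 4 libraries, and replicates of a day differed by more than sampling noise (chi-square per degree of freedom 3.29 at day 4 and 2.27 at day 6). Listed feeder cells made up 9.86% and 13.8% of barcodes at day 4 but 2.07% and 6.31% at day 6. Because this share moved with the day, levels in the listed cells of S2 are given beside the gene groups they are high in. Their part in the results was not tested. Levels are in CPM, the UMIs of a gene scaled to one common total per library, in the cells of a library summed together. A change can lie in the number of cells that express a gene, in the level per cell, or in both.

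From day 4 to day 6, 16 of 28 tested epithelial adhesion genes and 5 of 21 pluripotency transcription factors rose. In the other direction 9 of 22 BMP and TGF-beta response genes, 10 of 29 mesenchymal regulators and surface genes, 9 of 32 secreted inflammatory and protease-inhibitor genes and 8 of 31 matrix genes fell, and most other members of these lists did not pass the test. Of 13228 genes tested, 764 were higher and 943 lower at day 6 by edgeR's quasi-likelihood test at an adjusted p under 0.05. These are 5.78% and 7.13% of the tested genes, 12.9% together, and they are the background for every list below. The median log2 change over all tested genes was 0. Of the higher genes, 78.9% had a greater mean level in ESCs than in MEFs, against 49.6% of all tested genes and 22.0% of the lower genes. Genes with a greater level in listed feeder cells than in kept cells were 25.3% of the higher genes, 53.7% of the lower genes and 42.9% of all tested genes. The counts depend on the libraries. They fell to 270 higher and 496 lower without day 4 A, and to 243 higher and 332 lower without day 6 A. Without day 4 B the higher genes numbered 507.

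**Figure D1:**
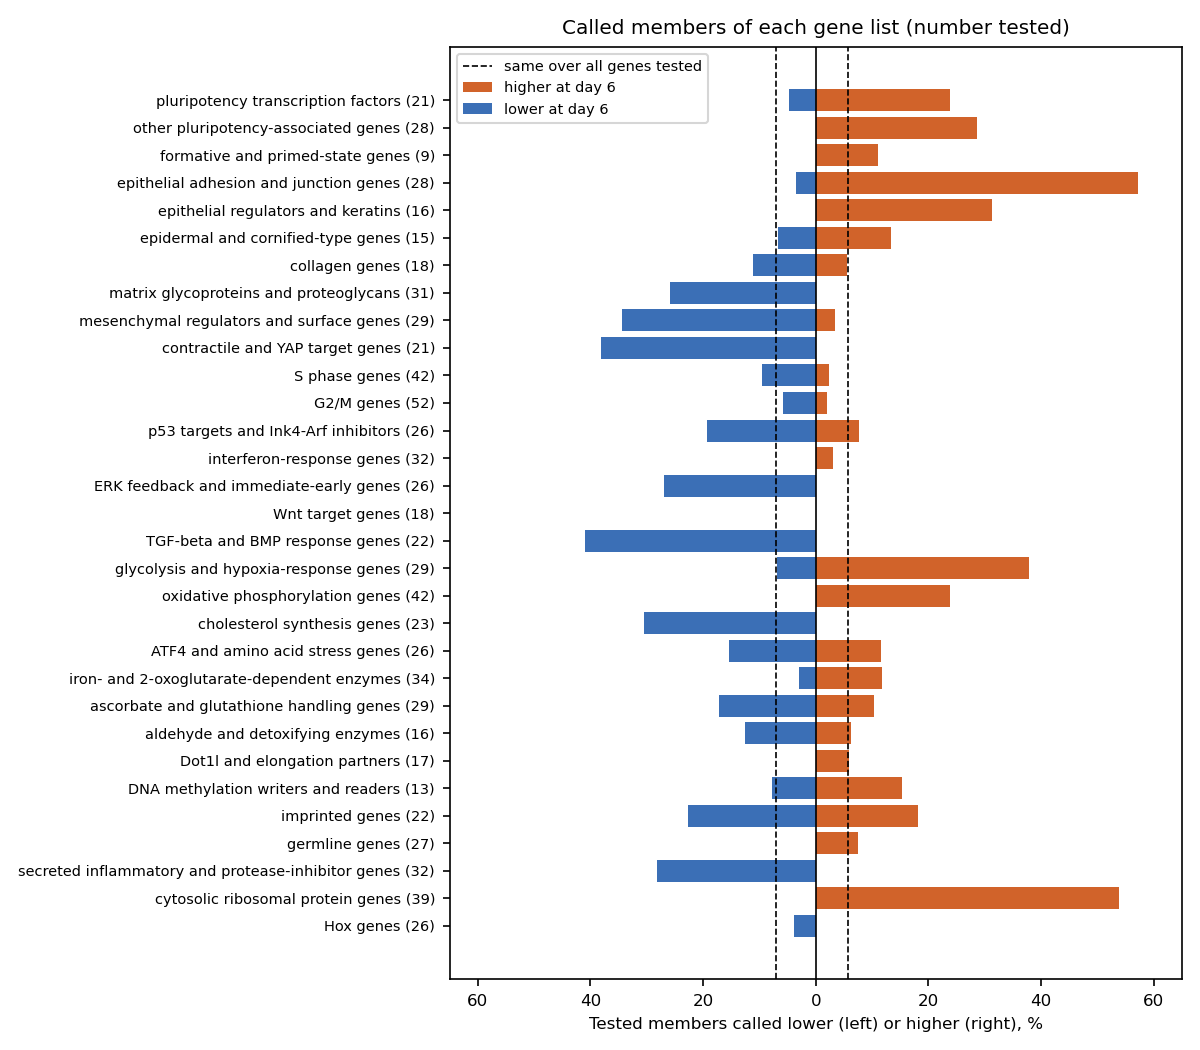
Bars show the percentage of tested members of each gene list that were called higher (right) or lower (left) at day 6 of S2, with the number tested in parentheses and dashed lines at the share over all 13228 tested genes (5.78% higher, 7.13% lower). Epithelial junction and ribosomal protein genes extend furthest to the right, and TGF-beta and BMP response genes furthest to the left.

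Epithelial adhesion was the list with the greatest share of higher members. Of 28 tested junction and adhesion genes, 16 rose and 1 fell, with a median log2 change of 1.43 (1.28 when genes without UMIs on 1 day were set at their bound). Epcam, a surface adhesion molecule of epithelial and pluripotent cells, was at 24.1 and 21.3 CPM in the day 4 libraries and at 152 and 161 CPM at day 6. This is a log2 change of 2.77 ± 0.21 (SE, adjusted p = 4.12e-10), and both day 6 libraries lay far above both day 4 libraries. Cdh1, which encodes E-cadherin, was already at 138 and 123 CPM at day 4 and rose to 271 and 217 CPM (0.90 ± 0.14, adjusted p = 3.62e-05). Mean Epcam at day 6 was 45.3% of its ESC level and mean Cdh1 37.2%, from 6.58% and 20.0% at day 4. Crb3, a polarity protein of the apical membrane, rose from 4.14 and 2.87 CPM to 20.7 and 21.3 CPM (2.55 ± 0.41, adjusted p = 9.73e-05). Ap1m2, a subunit of the adaptor that sorts proteins to the basolateral membrane, had no UMI in either day 4 library and 64 UMIs at day 6, which is at least 20.1-fold higher against 3 UMIs over the day 4 group. The claudin Cldn6 had 2 UMIs at day 4 and 114 at day 6, a 53.7-fold ratio with a 95% counting interval from 14.5 to 449. Cdh3, the P-cadherin gene, rose from 7.24 and 4.51 CPM to 24.6 and 20.2 CPM.

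Prss8, a membrane protease, was called on 0 UMIs at day 4 and 6 at day 6, at least 1.88-fold higher, and lost its call without any 1 of the 4 libraries (adjusted p up to 0.24, without day 4 A). The other genes named here for adhesion kept their calls without each library, and the list's higher members numbered 14 to 15 then. Levels of Epcam and Cdh1 in listed feeder cells were 2.84 and 11.3 CPM, below the 94.2 and 196 CPM of kept cells.

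Among 16 tested epithelial regulators and keratins, 5 rose and 11 did not pass the test. Esrp1, a splicing regulator that sets epithelial exon choice, rose from 7.58 and 2.46 CPM to 28.1 and 27.3 CPM (log2 2.40 ± 0.39, adjusted p = 0.000146). The grainyhead factor Grhl2 rose from 2.76 and 1.23 CPM to 13.4 and 7.51 CPM, and Tfap2c, a transcription factor of surface ectoderm, trophoblast and germ cells, from 17.9 and 23.4 CPM to 62.2 and 53.7 CPM. The simple-epithelium keratin Krt18 stayed low, at 3.79 and 0.82 CPM on day 4 and 6.06 and 2.77 CPM on day 6 (adjusted p = 0.624), so epithelial regulators passed the test and this keratin did not. Grhl2 lost its call without day 4 B (adjusted p = 0.0708) and without day 6 A (adjusted p = 0.1435), and without day 4 B the list had 3 higher members.

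The start regions of Epcam, Crb3 and Nanog, which rose, and of Fos, which fell, are shown because these genes carry the epithelial, pluripotency and immediate-early changes. Each runs from 250 bases before to 50 after the start site in RefSeq on GRCm38.p6, the build called mm10, and is written 5' to 3' on the gene's strand. All 4 genes lie on the plus strand. Capitals mark matches, on either strand, to the motifs searched.
Epcam, chr17:87635729-87636028: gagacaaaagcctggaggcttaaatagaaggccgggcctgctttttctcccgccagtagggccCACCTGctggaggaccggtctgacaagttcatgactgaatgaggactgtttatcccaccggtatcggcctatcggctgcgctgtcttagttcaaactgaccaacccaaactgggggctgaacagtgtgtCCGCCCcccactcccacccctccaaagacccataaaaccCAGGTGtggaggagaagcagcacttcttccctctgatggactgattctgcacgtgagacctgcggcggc
Crb3, chr17:57061951-57062250: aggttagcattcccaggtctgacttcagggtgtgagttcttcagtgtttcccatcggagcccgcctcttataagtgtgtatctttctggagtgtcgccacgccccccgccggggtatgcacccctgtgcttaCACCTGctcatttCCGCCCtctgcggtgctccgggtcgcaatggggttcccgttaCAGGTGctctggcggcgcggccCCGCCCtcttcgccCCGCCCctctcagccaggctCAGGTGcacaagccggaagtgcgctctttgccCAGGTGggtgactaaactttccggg
Nanog, chr6:122707239-122707538: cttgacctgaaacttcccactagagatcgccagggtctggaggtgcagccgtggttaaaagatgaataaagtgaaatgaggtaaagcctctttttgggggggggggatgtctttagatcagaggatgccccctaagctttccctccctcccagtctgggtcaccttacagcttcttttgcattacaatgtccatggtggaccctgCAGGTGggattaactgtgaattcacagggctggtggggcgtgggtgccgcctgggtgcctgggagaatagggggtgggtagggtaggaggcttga
Fos, chr12:85473640-85473939: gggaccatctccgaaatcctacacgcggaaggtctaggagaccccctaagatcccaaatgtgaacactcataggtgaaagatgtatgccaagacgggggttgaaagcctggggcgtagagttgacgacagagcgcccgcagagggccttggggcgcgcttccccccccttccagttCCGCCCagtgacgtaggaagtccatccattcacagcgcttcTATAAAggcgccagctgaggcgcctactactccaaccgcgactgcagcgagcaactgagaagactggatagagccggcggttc
The motifs were the E-box CACCTG, which factors such as Snai2 and Zeb1 can bind, the GC box GGGCGG, the TATA box TATAAA, the POU octamer ATGCAAAT, the AP-1 site TGANTCA and the TCF site CTTTGAT. The AP-1 site TGANTCA was in 7.93% of all start regions, TATAAA in 14.2%, CTTTGAT in 3.72% and ATGCAAAT in 1.75%. TGANTCA and ATGCAAAT were in no start region of either set. Of the 14 genes with the greatest rise, 10 had a start region in the RefSeq table, and 4 of these 10 held CACCTG, against 20.0% of 27025 start regions. Crb3 held 4 matches to it, Epcam 2 and Nanog 1. Of the 14 genes with the greatest fall, 7 had a start region, and 2 of these 7 held CACCTG. The GC box GGGCGG was in 6 of the 10 and in 1 of the 7, against 35.9% of all start regions. In Fos the capitals are 1 GC box, read on the minus strand, and a TATA box that starts 33 bases before the start site. These are matches of letters, not measured binding sites.

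A minority of the pluripotency genes rose. Of 21 tested pluripotency transcription factors, 5 rose and 1 fell, with a median log2 change of 0.34, and of 28 other pluripotency-associated genes 8 rose, with a median of 0.51. Nanog, a homeodomain factor of the naive network, was at 9.31 and 8.61 CPM at day 4 and 59.6 and 58.5 CPM at day 6 (log2 2.71 ± 0.29, adjusted p = 1.88e-07). Both day 6 libraries were several-fold above both day 4 libraries, and the day 6 mean was 15.6% of the ESC level. Sall4, a zinc-finger partner of the network, rose from 6.55 and 3.69 CPM to 17.5 and 26.9 CPM (2.05 ± 0.33, adjusted p = 0.000115), which was 6.23% of its ESC level. Utf1, a chromatin factor of undifferentiated cells, rose from 0.345 and 1.64 CPM to 9.89 and 7.90 CPM (3.21 ± 0.59, adjusted p = 0.000567). Tdh, the threonine dehydrogenase that mouse ESCs depend on, rose from 47.9 and 62.3 CPM to 125 and 102 CPM (1.06 ± 0.23, adjusted p = 0.00277). The RNA-binding protein gene Lin28a had 2 UMIs at day 4 and 25 at day 6, an 11.8-fold ratio with a 95% counting interval from 2.94 to 103.

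Other core genes stayed near the floor of detection. Pou5f1, the Oct4 gene, had 4 UMIs over both day 4 libraries and 3 at day 6 (adjusted p = 0.854). Sox2 had 3 and 7 UMIs (adjusted p = 0.715), and Zfp42, the Rex1 gene, also had 3 and 7 (adjusted p = 0.532). In ESCs the means were 89.3 CPM for Pou5f1, 676 CPM for Sox2 and 210 CPM for Zfp42. Dppa5a had no UMI in any of the 4 libraries and 586 CPM in ESCs. Esrrb had 0 UMIs at day 4 and 10 at day 6, at least 3.14-fold higher, in 6 cells in all. Klf4 went from 25.9 and 36.9 CPM to 13.1 and 23.3 CPM (fell by 0.80 on the log2 scale, adjusted p = 0.0231), and Myc from 308 and 250 CPM to 163 and 187 CPM (fell by 0.68, adjusted p = 0.00139). Doxycycline is commonly used to switch on reprogramming factor transgenes. The sources used here name no transgene and do not say whether its transcripts count toward these genes.

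Some of these calls were lost when 1 library was left out. Esrrb lost its call without any 1 of the 4 libraries (adjusted p up to 0.176, without day 4 A). Tdh had an adjusted p of 0.0808 without day 4 A and 0.07 without day 6 A, Myc 0.052 and 0.0532 without the same libraries, and Klf4 0.258 without day 4 B and 0.455 without day 6 A. Nanog, Sall4, Utf1 and Lin28a kept their calls in each case. The first list had 2 higher members without day 4 A, 3 without day 4 B and 3 without day 6 B, and the second had 4 without day 4 A and 5 without day 6 A. None of Nanog, Sall4, Utf1 and Tdh exceeded 2.84 CPM in listed feeder cells.

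**Figure D2:**
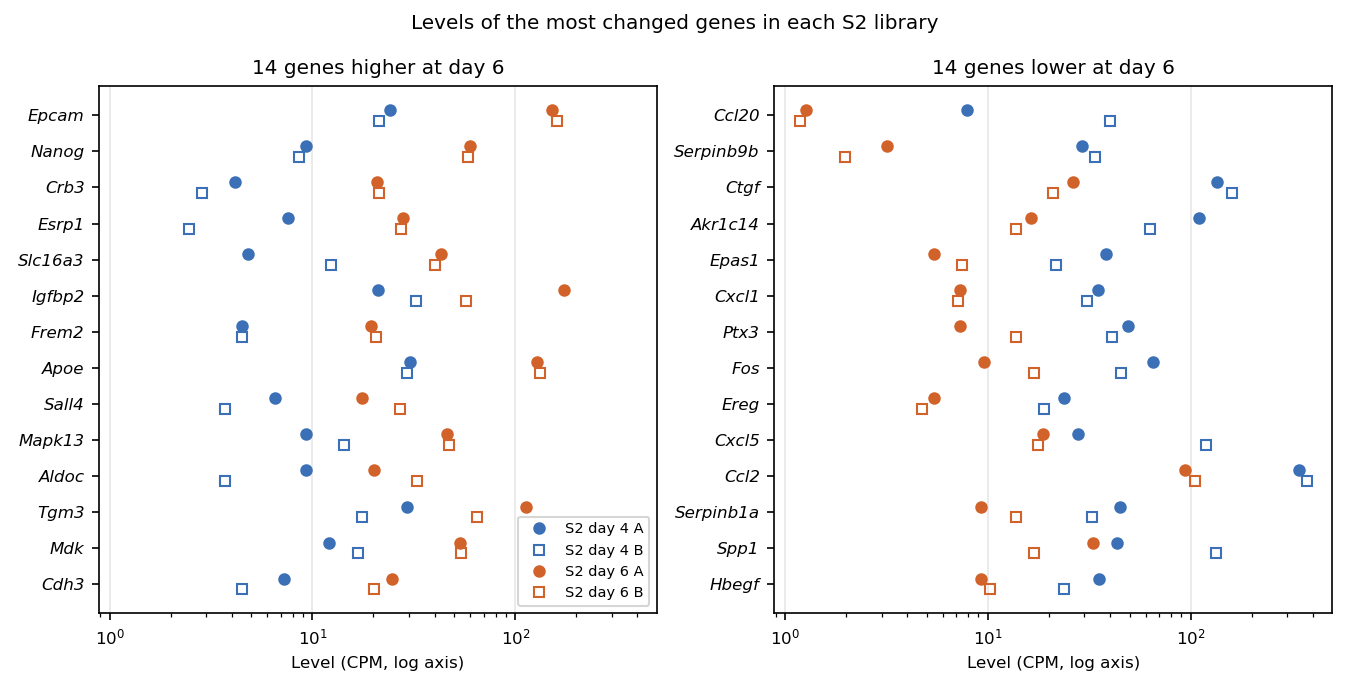
Each row is a gene and each point a library (filled circles A, open squares B), with the level in CPM on a log axis, for the 14 genes with the greatest rise and the 14 with the greatest fall in S2. The libraries of the 2 days do not overlap for any of these genes, which was a condition for choosing them; Ccl20, Cxcl5, Esrp1 and Spp1 at day 4 and Igfbp2 at day 6 show the widest gaps between replicates.

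To count cells with a UMI at the same depth, each cell was thinned to 1000 UMIs, which left out 1 and 5 shallower cells of the day 6 libraries. Such a share depends on the level of a gene as well as on how many cells express it. It therefore cannot tell a rise in few cells from a rise in many. Nanog was then detected in 3 of 192 cells (1.56%, 95% exact binomial interval 0.32% to 4.50%) and 0 of 169 cells at day 4. The latter allows a share of up to 1.78% of cells with a Nanog UMI at this thinned depth, and at full depth 10 and 6 cells of these libraries had one. At day 6 it was detected in 13 of 236 cells (5.51%, 2.97% to 9.24%) and 14 of 203 cells (6.90%, 3.82% to 11.3%). Epcam was detected in 1.04% and 3.55% of cells at day 4 and 13.6% and 11.8% at day 6, and Cdh1 in 13.5% and 15.4% and then 25.4% and 18.2%. MEFs, which should lack these transcripts, gave 0% for Nanog and Epcam in both libraries and 0% and 0.232% for Cdh1 at the same depth. Before thinning their cells had a median of 22796 and 19102 UMIs. ESCs gave 25.4% and 32.3% for Nanog. Without thinning the S2 means were 4.38% and 23.7% for Nanog and 18.3% and 51.7% for Epcam on days 4 and 6. At full depth the 10% of cells with the most Nanog UMIs held 100% of them in each day 4 library. That value was fixed, since fewer than 10% of the cells of these libraries had a Nanog UMI. In the day 6 libraries the top 10% of cells held 68.4% and 78.4%. For Epcam the values were 80.0% and 71.2% at day 4 and 47.2% and 53.6% at day 6. With 2 libraries a day an exact permutation test cannot give a p under 0.333, so shares were not tested, and intervals cover counting error only.

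Cells with UMIs of several pluripotency markers at once were rare at the thinned depth. At 1000 UMIs per cell, 3 or more of 12 pluripotency markers were seen in no day 4 cell, in 1 of 236 and 2 of 203 cells at day 6, and in 95 of 138 and 124 of 164 ESCs. At least 1 marker was seen in 16.7% and 8.28% of day 4 cells and 17.8% and 15.8% of day 6 cells, with the days overlapping. 3 or more of 12 epithelial markers were seen in no cell at day 4, in 8 and 4 cells at day 6, and in 12 of 138 and 24 of 164 ESCs. Of the 12 such cells at day 6, 1 also carried 3 pluripotency markers. 3 or more fibroblast markers were seen in 5.73% and 11.8% of day 4 cells and 7.20% and 9.36% of day 6 cells, against 86.6% and 81.2% of MEFs. These shares depend on depth. Without thinning, the mean shares of cells with 3 or more pluripotency markers were 3.63% at day 4 and 17.3% at day 6. For epithelial markers they were 11.2% and 44.3%, and for fibroblast markers 60.1% and 37.4%.

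**Figure D3:**
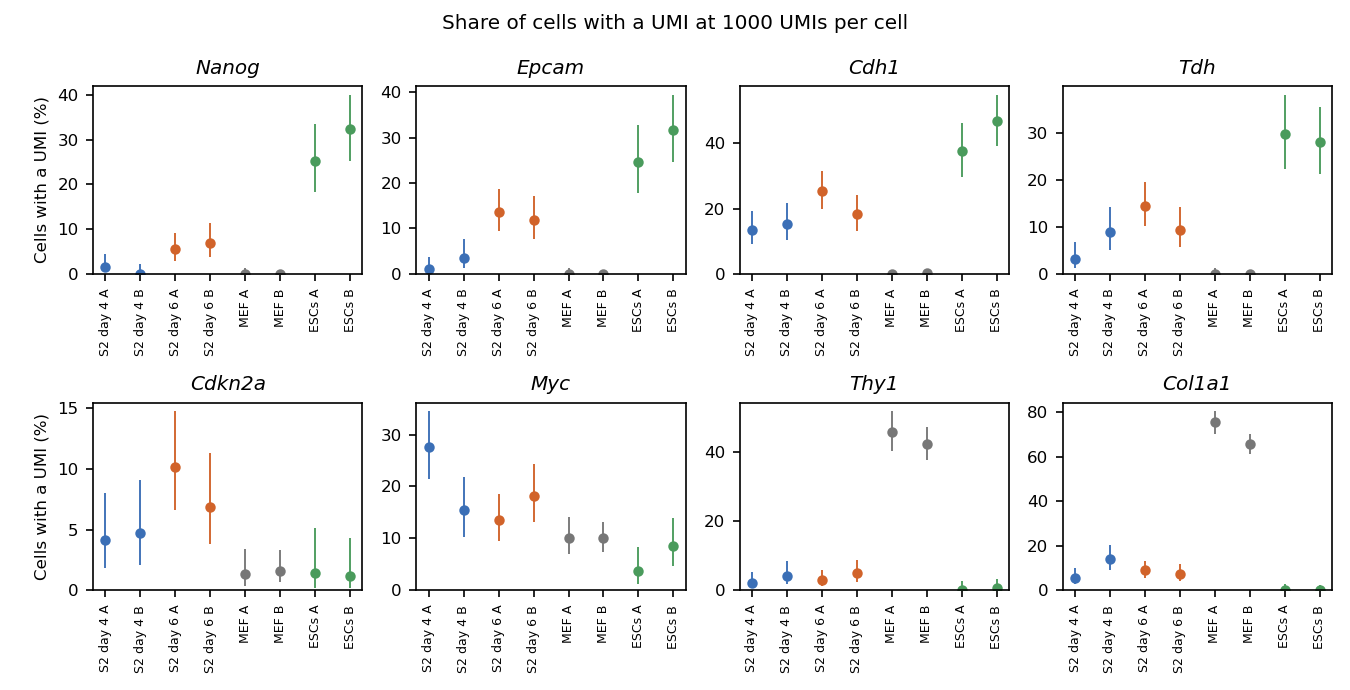
Points give the percentage of cells with at least 1 UMI of a gene after thinning each cell to 1000 UMIs, by library, with 95% exact binomial intervals for counting error. Nanog and Epcam are seen in more cells at day 6 of S2 than at day 4 and in fewer than in ESCs, while Thy1 and Col1a1 stay far below MEFs on both days.

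Genes with roles in sugar use were called mostly in the higher direction. Of 29 tested glycolysis and hypoxia-response genes, 11 rose, 2 fell and 16 did not pass the test, with a median log2 change of 0.26. Slc16a3, the lactate exporter MCT4, rose from 4.83 and 12.3 CPM to 43.1 and 40.3 CPM (2.32 ± 0.32, adjusted p = 1.24e-05). Slc2a3, the high-affinity glucose transporter GLUT3, rose from 141 and 137 CPM to 348 and 334 CPM (1.30 ± 0.14, adjusted p = 4.03e-07), and the aldolase Aldoc from 9.31 and 3.69 CPM to 20.1 and 32.8 CPM. Pgk1, a payoff-phase glycolytic enzyme, moved the other way, from 287 and 189 CPM to 125 and 167 CPM (fell by 0.72, adjusted p = 0.00911). So did Pgam1, which has many processed copies that can split its reads. Epas1, the HIF-2-alpha gene, fell from 38.3 and 21.7 CPM to 5.42 and 7.51 CPM (fell by 2.25, adjusted p = 5.42e-05). The list had 5 higher members without day 4 A and 6 without day 6 A, and Pgk1 lost its call without either of them (adjusted p = 0.310 and 0.208).

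Several secreted and signalling genes were also among the greatest rises. Mdk, the growth factor midkine, went from 12.1 and 16.8 CPM to 53.6 and 54.1 CPM (1.91 ± 0.20, adjusted p = 1.21e-07). Apoe, a lipid carrier that ESCs express, went from 30.3 and 29.1 CPM to 128 and 132 CPM, and Mapk13, a p38-family kinase of epithelia, from 9.31 and 14.4 CPM to 45.9 and 47.0 CPM. Frem2, a basement-membrane protein, went from 4.48 and 4.51 CPM to 19.5 and 20.5 CPM. Each of these 4 genes kept its call without any 1 library. Igfbp2, which binds insulin-like growth factors, had 21.0 and 32.4 CPM and then 173 and 56.9 CPM, with the replicates of day 6 far apart, and an adjusted p of 0.346 without day 6 A and 0.09165 without day 4 A. The transglutaminase Tgm3 was similar, at 29.3 and 17.6 CPM and then 113 and 64.8 CPM, with an adjusted p of 0.182 without day 6 A and 0.0998 without day 4 B. Levels in listed feeder cells were 803 CPM for Igfbp2 and 281 CPM for Apoe, above the 77.4 and 83.7 CPM of kept cells. The part of feeder cells in these 2 changes was not tested.

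Some inflammatory chemokines and protease inhibitors fell steeply. Of 32 tested genes of this list 9 fell and 23 did not pass the test, with a median log2 change of -0.21 (-0.51 with genes without UMIs on 1 day at their bound). Ccl2, a monocyte chemokine, was at 341 and 373 CPM at day 4 and 93.5 and 105 CPM at day 6 (fell by 1.85, SE 0.26, adjusted p = 1.77e-05). Cxcl1, a neutrophil chemokine, went from 35.2 and 30.8 CPM to 7.34 and 7.11 CPM (adjusted p = 0.00152). Serpinb9b, a serpin from a family of close copies, went from 29.3 and 33.6 CPM to 3.19 and 1.98 CPM. Ccl20 had 7.93 and 40.2 CPM at day 4, with the replicates far apart, and 1.28 and 1.19 CPM at day 6. Without day 4 B its adjusted p was 0.137, and with listed cells kept 0.191. Cxcl5 and Spp1, the osteopontin gene, also lost their calls without day 4 B (adjusted p = 0.382 and 0.170). In listed feeder cells Ccl2 was at 213 CPM against 230 CPM in kept cells, and Serpinb9b at 166 against 17.0 CPM. Of 12 macrophage or blood markers 9 were tested and 0 passed. The summed level of the 12 was 91.7 and 115 CPM at day 4 and 80.1 and 68.0 CPM at day 6. Laptm5 gave most of it, at 78.9 and 100 CPM and then 69.9 and 62.0 CPM, and was at 46.9 CPM in ESCs. Ptprc, C1qa, C1qb, C1qc, Tyrobp and Cd52 were at 0 on both days.

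Genes outside that list were also among the greatest falls. Akr1c14, an aldo-keto reductase with near copies in its cluster, went from 110 and 62.8 CPM to 16.3 and 13.8 CPM (fell by 2.52, adjusted p = 1.34e-06). The pentraxin Ptx3 went from 48.9 and 41.0 CPM to 7.34 and 13.8 CPM, and Serpinb1a, which inhibits neutrophil proteases, from 44.8 and 32.8 CPM to 9.25 and 13.8 CPM. Of the EGF-receptor ligands, Ereg fell from 23.8 and 18.9 CPM to 5.42 and 4.74 CPM and Hbegf from 35.5 and 23.8 CPM to 9.25 and 10.3 CPM. All 5 kept their calls without each library, and Akr1c14 was at 11.3 CPM in listed cells against 52.3 CPM in kept cells. Ptx3, Ereg and Hbegf were higher in listed cells, at 149, 35.4 and 210 CPM against 28.1, 13.5 and 20.2 CPM.

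Genes that respond to ERK signalling are relevant because S2 contains a MEK inhibitor on both days. Of 26 tested feedback and immediate-early genes 7 fell. In the other media 11 fell in A2S, 8 in A2 and 7 in AS, which held no 2i, and 6 rose in AS. The 7 in S2 were Egr1, Fos, Fosl1, Phlda1, Myc, Hmga2 and Junb, with no Spry, Spred, Dusp or Etv gene among them. Fos, an AP-1 subunit, went from 65.5 and 45.5 CPM to 9.57 and 17.0 CPM (fell by 2.11, SE 0.37, adjusted p = 0.000259). Fosl1, a further AP-1 subunit, went from 12.4 and 9.43 CPM to 2.87 and 3.56 CPM, and Egr1, an early growth response factor, from 24 UMIs in all to 2, a ratio of 0.0785 with a 95% counting interval from 0.009 to 0.316. Without day 4 A the list had 4 lower members and without day 6 A it had 2. Fosl1 then had adjusted p of 0.131 and 0.136, and Egr1 0.251 and 0.316. Of 18 tested Wnt target genes, which a GSK3 inhibitor acts on through beta-catenin, 0 passed edgeR's test, 2 had an unadjusted p under 0.05 and DESeq2 called 0. The 2 of smallest p were Lgr5 with 4 and 0 UMIs (adjusted p = 0.187) and Bambi at 9.996 and 7.38 CPM and then 4.15 and 6.32 CPM (adjusted p = 0.194).

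TGF-beta and BMP response genes had the greatest share of lower members, 9 of 22 tested, and a median log2 change of -0.76. Id4, one of the Id proteins that BMP signalling induces and that block helix-loop-helix factors, went from 64.1 and 56.6 CPM to 28.7 and 24.9 CPM (fell by 1.17, SE 0.17, adjusted p = 2.76e-05). Id1, Id2 and Id3 were also called lower. Nog, the BMP antagonist noggin, went from 17.92 and 18.05 CPM to 5.42 and 2.77 CPM (fell by 2.08, adjusted p = 0.000448). The activin antagonist Fst, follistatin, went from 84.8 and 112 CPM to 48.2 and 32.4 CPM, with an adjusted p of 0.0634 without day 4 B and 0.0761 without day 6 B. The list had 6 to 8 lower members when 1 library was left out. Fst was at 288 CPM in listed feeder cells against 70.5 CPM in kept cells, while Id4 was lower there, at 17.0 against 44.7 CPM.

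Mesenchymal regulators were called mostly lower, and collagens in both directions. Of 29 tested mesenchymal regulators and surface genes, 10 fell and 1 rose, with a median log2 change of -0.65. Snai2, the repressor Slug that holds epithelial genes down, went from 7.24 and 13.9 CPM to 0.957 and 3.16 CPM (fell by 2.39, SE 0.47, adjusted p = 0.00088), and Foxc2 from 8 UMIs to 0, at least 2.83-fold lower. Prrx1, Runx2, Foxc1, Zeb1 and Vim were also called lower. Twist1 was at 78.2 and 93.5 CPM and then 59.3 and 95.2 CPM (adjusted p = 0.662). Without day 6 A the list had 4 lower members, and Snai2 had an adjusted p of 0.0646. Foxc2 lost its call without day 4 B (adjusted p = 0.245), day 6 A (0.215) or day 6 B (0.129), and with listed cells kept (0.260). Listed cells held 62.4 CPM of Snai2 and 15.6 CPM of Foxc2 against 6.18 and 0.749 CPM in kept cells.

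The 1 member that rose was Thy1, a surface glycoprotein of fibroblasts that is usually lost early in reprogramming. It was at 27.6 and 25.4 CPM at day 4 and 46.3 and 54.5 CPM at day 6 (0.92 ± 0.24, adjusted p = 0.0111), far below the 1190 CPM of MEFs. The shares of cells overlapped between the days: 2.08% and 4.14% of thinned cells had a Thy1 UMI at day 4 and 2.97% and 4.93% at day 6. At full depth 38 cells of each day 4 library had a Thy1 UMI, and 44 and 46 cells at day 6, where the most in 1 cell was 48 and 24 UMIs against 8 and 6 at day 4. Its call was lost without day 4 A (adjusted p = 0.0709), day 4 B (0.0703) or day 6 B (0.0836), and with listed cells kept (0.271). Thy1 was at 727 CPM in listed cells. Col1a1 was at 61.4 and 173 CPM and then 224 and 126 CPM (adjusted p = 0.133), with the days overlapping. In the collagen list 1 of 18 tested genes rose, Col6a3, and 2 fell, Col15a1 from 31.02 and 31.99 CPM to 15.0 and 15.8 CPM and Col6a1 from 320 and 347 CPM to 184 and 215 CPM. Col15a1, Col6a1 and Col6a3 lost their calls without day 6 A (adjusted p = 0.0827, 0.063 and 0.0915), Col6a3 also without day 4 A (0.118) and with listed cells kept (0.160).

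In the lists of matrix and contractile genes each called member was lower. Of 31 tested matrix glycoproteins and proteoglycans 8 fell and 23 did not pass the test, with a median log2 change of -0.10, and of 21 contractile and YAP target genes 8 fell. Ctgf, a matricellular YAP target, went from 135 and 159 CPM to 26.5 and 20.9 CPM (fell by 2.62, SE 0.37, adjusted p = 1.47e-05). Cyr61, its relative, went from 826 and 731 CPM to 324 and 406 CPM (fell by 1.09, adjusted p = 4.87e-06), and Amotl2, which binds YAP, from 178 in both libraries to 85.8 and 85.3 CPM. Thbs1, the matrix protein thrombospondin-1, went from 664 and 900 CPM to 339 and 458 CPM (fell by 0.97, adjusted p = 0.00304), and Timp3, an inhibitor of matrix proteases, from 131 and 190 CPM to 70.5 and 78.2 CPM. Listed feeder cells held 2065 CPM of Ctgf against 85.8 in kept cells, 11443 CPM of Thbs1 against 594, 1493 CPM of Timp3 against 118 and 1242 CPM of Cyr61 against 582. With listed cells kept, Timp3 had an adjusted p of 0.459. Ctgf, Cyr61 and Amotl2 kept their calls in each alternative that was run. Without day 4 B the matrix list had 3 lower and 2 higher members, without day 6 A 4 and without day 6 B 5, and Thbs1 and Timp3 lost their calls without day 4 B (adjusted p = 0.0641 and 0.134) or day 6 A (0.102 and 0.111).

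Cell-cycle genes changed little, and inhibitors of the cycle went both ways. Of 42 tested S phase genes 1 rose and 4 fell, and of 52 G2/M genes 1 rose and 3 fell, shares near the background. Mki67, the proliferation marker Ki-67, was at 131 and 93.5 CPM and then 68.9 and 81.8 CPM (fell by 0.59, adjusted p = 0.00869), but without day 4 A its adjusted p was 0.311 and without day 6 A 0.173. Cdkn2a, whose Ink4a and Arf products share their 3' end in these counts, rose from 36.9 and 63.6 CPM to 105 and 81.4 CPM (0.92 ± 0.19, adjusted p = 0.00139). Its neighbour Cdkn2b of the Ink4 family went from 24.5 and 36.5 CPM to 16.9 and 16.2 CPM (fell by 0.86, adjusted p = 0.0228). Cdkn1b, an inhibitor of the Cip/Kip family, rose from 16.9 and 15.6 CPM to 32.2 and 30.0 CPM (0.94 ± 0.20, adjusted p = 0.00188) and kept its call without each library. Cdkn1a, of the same family, was at 701 and 845 CPM and then 979 and 880 CPM (adjusted p = 0.0716). Of 26 tested p53 targets and inhibitors 2 rose and 5 fell, among them Mdm2, which degrades p53, from 400 and 408 CPM to 254 and 286 CPM. Cdkn2a lost its call without day 4 A (adjusted p = 0.126) or day 6 A (0.0722) and Cdkn2b without day 4 B (0.275), day 6 A (0.129) or day 6 B (0.0951). The list had 2 lower members without day 4 A, 3 without day 6 B and 0 without day 6 A by edgeR. Mdm2 had an adjusted p of 0.107 without day 6 A. Listed feeder cells, which cannot divide, held 119 CPM of Cdkn2a, 373 CPM of Cdkn2b and 11.3 CPM of Mki67.

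Lipid, stress and redox genes gave smaller changes. Of 23 tested cholesterol synthesis genes 7 fell. Msmo1, a methylsterol oxidase of the pathway, went from 96.2 and 89.4 CPM to 43.4 and 49.0 CPM (fell by 1.01, SE 0.15, adjusted p = 2.85e-05), and Cyp51 from 102 and 96.8 CPM to 50.7 and 58.9 CPM. Both kept their calls without each library, while the list had 4 lower members in each of these 4 fits. Ddit4, an inhibitor of mTORC1 that stress induces, rose from 110 and 142 CPM to 285 and 242 CPM (1.07 ± 0.15, adjusted p = 9.56e-06), and Hspa5, the ER chaperone BiP, went from 639 and 553 CPM to 405 and 385 CPM (fell by 0.59, adjusted p = 0.000119). Of 29 tested ascorbate and glutathione genes 3 rose and 5 fell. Prdx6, a peroxiredoxin, went from 963 and 767 CPM to 629 and 602 CPM, and Gpx1, a glutathione peroxidase, from 773 and 766 CPM to 571 and 576 CPM. Without day 4 A or day 6 A the list had 3 lower members.

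S2 lacks ascorbic acid, so the iron- and 2-oxoglutarate-dependent enzymes that use it as a cofactor are given as a group. Of 34 tested, 4 rose and 1 fell. Kdm6b, a demethylase of the Polycomb mark on histone H3, rose from 50.0 and 71.8 CPM to 106 and 96.0 CPM (0.74 ± 0.15, adjusted p = 0.00138), with an adjusted p of 0.108 without day 4 A. Tet2, a DNA demethylase, had 9.31 and 7.79 CPM and then 14.7 and 16.2 CPM (0.84 ± 0.28, adjusted p = 0.0422), and lost its call without any 1 library (adjusted p up to 0.194, without day 4 B). P4ha3, a collagen prolyl hydroxylase, went from 72.4 and 95.6 CPM to 33.8 and 38.3 CPM (fell by 1.22, adjusted p = 0.000631) and kept its call without each library. The higher members numbered 1 without day 4 A or day 6 A and 2 without either other library. Of the 17 tested genes for DOT1L and its elongation partners 1 passed the test, Ski, and it lost its call without any 1 library. Dot1l itself had a log2 change of 0.03 (adjusted p = 0.98).

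The change from day 4 to day 6 was next set beside the same interval in the 3 other media, whose libraries are separate from those of S2. A2S had 1522 higher and 1608 lower genes by the same test. Of the 764 genes that rose in S2, 47.8% were also called higher in A2S, which is 24.0% of the A2S calls, against 11.5% of all tested genes. Of the 943 that fell, 52.1% were also called lower in A2S, 30.5% of the A2S calls, against 12.2% of all tested genes. Of the S2 genes, 25.7% of those that rose and 37.2% of those that fell were called the same way in A2, which is 21.8% and 36.1% of the A2 calls, against 6.80% and 7.34% of all tested genes. For AS the shares were 42.5% and 48.9%, or 22.8% and 30.5% of the AS calls, against 10.8% and 11.4%. Calls in opposite directions numbered 23 for A2S, 19 for A2 and 32 for AS. The 2 intervals differed by the test of the difference itself for 443 genes (3.35% of those tested) against A2S, 328 (2.48%) against A2 and 562 (4.25%) against AS. These numbers depend on single libraries: they were 127, 55 and 268 without S2 day 6 A, and 194, 143 and 380 without S2 day 4 A. Without AS day 4 A the last was 1414, and with only the compared groups fitted it was 109.

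Pluripotency genes were the list with the greatest share of members whose change was lower in S2 than in A2S. Of 21 pluripotency transcription factors 7 had a smaller change in S2 than in A2S by that test, with a median log2 change of 0.34 in S2 and 2.12 in A2S. Among the epithelial adhesion genes 1 of 28 did, with medians of 1.43 and 1.61. Nanog changed by 2.71 in S2 and 3.68 in A2S (adjusted p of the difference 0.217), and Epcam by 2.77 and 2.45 (adjusted p = 0.627), so for these genes no difference passed the test. Klf4 moved by -0.80 in S2 and 0.99 in A2S (adjusted p = 0.00336). Of 29 glycolysis and hypoxia genes 6 had a lower change in S2, among them Pgk1, at -0.72 against 0.92 (adjusted p = 0.000491), and Slc2a3, at 1.30 against 2.20 (adjusted p = 0.011).

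The change in S2 differed from that in A2S for 2 of 31 matrix genes, 2 of 29 mesenchymal genes and 3 of 21 contractile and YAP target genes, against 3.35% of all tested genes. Ctgf moved by -2.62 in S2 and 0.36 in A2S (adjusted p of the difference 0.000717), and Thbs1 by -0.97 and 0.16 (adjusted p = 0.0362). Thy1 moved by 0.92 in S2 and -0.51 in A2S (adjusted p = 0.00831). Peg10, an imprinted gene derived from a retrotransposon, rose from 33.4 and 37.3 CPM to 109 and 99.6 CPM in S2 (1.57 ± 0.27) and moved by 0.18, 0.22 and -0.17 in A2S, A2 and AS (adjusted p of the differences 0.0224, 0.046 and 0.00537). Cdkn2a moved by 0.92 in S2 and by 0.02, 0.00 and 0.10 in the others (adjusted p = 0.0546, 0.0495 and 0.0581). In A2, which lacked SGC0946 and held ascorbic acid, Mapk13 moved by -0.01 against 1.99 in S2 (adjusted p = 0.00394), and in AS, which lacked 2i and held ascorbic acid, Mdk moved by 0.15 against 1.91 (adjusted p = 4.74e-05) and Cdh1 by 2.38 against 0.90 (adjusted p = 0.0003).

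**Figure D4:**
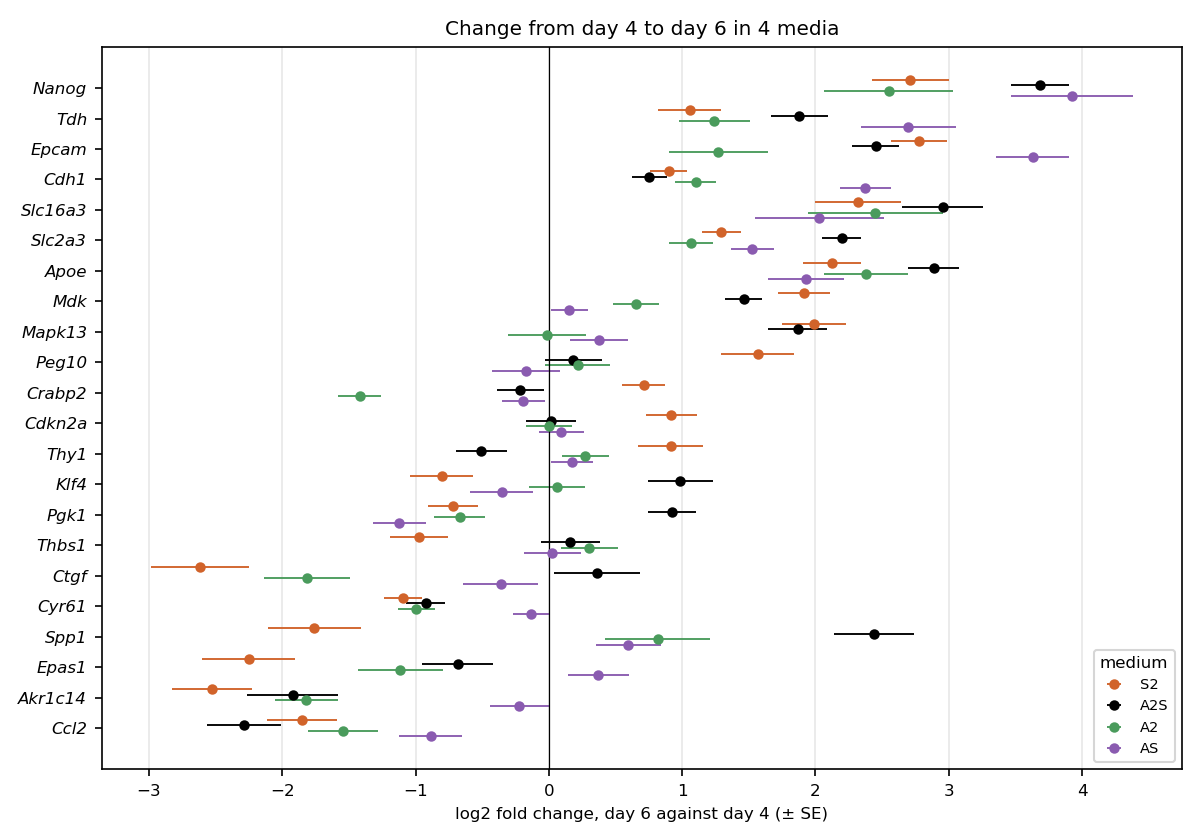
Points give the log2 fold change from day 4 to day 6 in S2, A2S, A2 and AS for 22 genes chosen after their values were seen, with bars of 1 SE from the fit. For Peg10 and Cdkn2a the S2 point lies to the right of the other 3 media, and for Ctgf, Spp1 and Epas1 to the left of them.

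Markers of other cell types were given as sums over each list. Of 12 neural markers Tubb3 and Stmn2 fell, and the summed level went from 303 and 304 CPM to 157 and 138 CPM. It was 128 and 127 CPM in MEFs and 584 and 598 CPM in ESCs. Stmn2 gave most of the S2 sum, at 236 and 216 CPM and then 95.1 and 85.3 CPM, and was at 380 CPM in ESCs. Of 10 endothelial markers Cd34 fell and Egfl7 rose, and their sum went from 172 and 162 CPM to 105 and 126 CPM, against 14.8 and 12.6 CPM in MEFs. Cd34 and Tek gave most of this sum. Cd34, a surface glycoprotein also seen outside endothelium, was at 86.5 and 85.7 CPM and then 35.1 and 47.4 CPM. Tek was at 67.6 and 62.3 CPM and then 43.1 and 54.1 CPM and did not pass the test. In MEFs the means were 3.10 CPM for Cd34 and 0.892 CPM for Tek. Cdh5, Tie1 and Emcn were at 0 on both days of S2. Of 10 extraembryonic endoderm markers Amn rose and Dab2 fell, and the sum went from 33.8 and 37.7 CPM to 25.2 and 24.1 CPM, with Sox17, Foxa2 and Afp at 0 on both days. The 10 skeletal muscle markers summed to 7.24 and 18.9 CPM and then 7.97 and 10.3 CPM. The 10 trophoblast markers summed to 28.6 and 40.6 CPM and then 83.3 and 70.7 CPM, of which Tfap2c gave most, while Cdx2, Elf5, Hand1 and Plac1 were at 0 on both days. The 12 fibroblast markers summed to 1291 and 1757 CPM at day 4 and 1536 and 1209 CPM at day 6. In MEFs the sum was 12795 and 11817 CPM, far above both days. Col1a2 gave most of the S2 sum, at 729 and 1055 CPM and then 989 and 686 CPM, against 5660 CPM in MEFs. Members differed, and Twist1 was nearer its MEF mean of 144 CPM, at 78.2 and 93.5 CPM and then 59.3 and 95.2 CPM. The 12 pluripotency markers summed to 134 and 93.1 CPM and then 236 and 216 CPM, against 5415 and 5319 CPM in ESCs, and Dppa5a and Dppa4 were at 0 on both days.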

How the data were processed

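Single-cell 3' libraries were made on the ddSEQ platform, and each deposited table holds whole-number counts of UMIs per gene and cell, made by the authors. Per the submitters' processing notes, bcl2fastq 2.19, STAR and mm10 were used, with settings not given in the sources at hand. Barcodes on the authors' deposited list of irradiated feeder cells were dropped, 3 other columns of that list were not used, and counts were summed per library. No doublet caller was run. All 32 libraries entered 1 edgeR 4.0.16 quasi-likelihood fit (R 4.3.3, TMM factors, filterByExpr, limma 3.58.1). Benjamini-Hochberg adjustment was over 13228 genes, with a threshold of 0.05. The test was also run on counts simulated with the spread it had estimated. Such counts meet its assumptions, so they cannot show whether the threshold holds for the real libraries. DESeq2 1.42.0 was an alternative. SEs are the fold change divided by the root of F. Genes without UMIs on 1 day are given against 3 UMIs over the group. Intervals are 95% exact intervals, and cover counting error only.

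Named genes were the 14 called genes of greatest change each way at 20 CPM or more, without overlap between days, a panel of core genes, and up to 3 called members of each list each way, or the 2 of smallest p. For differences between media the 6 greatest each way were named. A few genes that met these rules are not reported here. Members and lists were chosen with earlier results of these data known. The letters A and B were not used to pair libraries in the main fit. Deviations from group means of same-letter libraries correlated at -0.069 in S2, which cannot settle whether they share an origin. Over the series a library held 138 to 431 kept cells and 1727490 to 8848775 UMIs. Gene counts cannot separate near-identical copies, so Pgam1, Gstm1, Serpinb9b, Akr1c14 and ribosomal protein genes are uncertain.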

Additional observations from a re-analysis of the deposited data

Results flagged for a closer look

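For 35 gene and medium pairs the change from day 4 to day 6 in S2 differed from that in another medium by edgeR's test of the difference, and they are among the 6 greatest each way for each medium. Values are the log2 change in S2 minus that in the other medium, with 2 libraries a group.

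Against A2S, which adds ascorbic acid, S2 was higher by 3.53 for Nefm, 2.63 for Tgm1, 2.21 for Acta2, 2.06 for Nefl, 2.03 for Pstpip1 and 1.75 for Sdf2l1. The difference was -6.80 for H19, -5.89 for Calcoco2, -5.58 for Pou5f1, -4.20 for Spp1, -3.71 for Mylpf and -3.38 for Tnfrsf11b. Pou5f1 had 4 UMIs at day 4 and 3 at day 6 in S2, and 4 and 161 in A2S. With listed feeder cells kept, Acta2 was at 1.03 (adjusted p = 0.243 by edgeR) and Spp1 at -2.28 (0.0712). Pstpip1 and Sdf2l1 passed the threshold under each alternative that gave them a value.

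Against A2, which has ascorbic acid in place of SGC0946, S2 was higher by 3.35 for Sfn, 2.32 for Tgm1, 2.13 for Crabp2, 2.00 for Mapk13 and 1.98 for Krt19. The difference was -5.23 for Fndc1, -3.99 for Wisp2, -3.34 for Tfap2c, -2.72 for Kit, -2.61 for Serpinb9b and -2.60 for Gpnmb. Tfap2c had 2 UMIs at day 4 in A2. With listed feeder cells kept, Serpinb9b was at -0.70 (adjusted p = 0.675 by edgeR), Wisp2 at -2.44 (0.0779) and Tgm1 at 2.30 (0.0639). Crabp2, Mapk13, Krt19 and Kit passed under each alternative.

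Against AS, which has ascorbic acid in place of 2i, S2 was higher by 4.95 for Cxcl3, 2.97 for Serpinf1, 2.68 for Bst2, 2.53 for Klk8, 2.32 for Aim1 and 1.77 for Tmlhe. The difference was -5.75 for Tdgf1, -5.65 for Tfap2c, -5.26 for Ccl20, -4.43 for Trh, -3.86 for Ecel1 and -3.76 for Ret. Tfap2c and Tdgf1 each had 1 UMI at day 4 in AS. Cxcl3 was at 80.7 CPM in 1 day 6 library of S2 and 0 in the other. With listed feeder cells kept, Serpinf1 was at 0.70 (adjusted p = 0.303 by edgeR), Ccl20 at -2.68 (0.126), Cxcl3 at 5.10 (0.0571) and Aim1 at 1.99 (0.0509). Klk8, Tfap2c, Ecel1 and Ret passed under each alternative.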

How the results depend on the processing

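The 1707 called genes of S2 became 428 with a minimum fold of 2 (252 higher, 176 lower), and ranged from 575 to 1227 when 1 library was left out (243 to 531 higher, 332 to 720 lower). DESeq2 called 480 higher genes. With only the S2 groups fitted, 1267 genes were called (599 higher, 668 lower). For the differences between media a minimum fold of 2 gave 192, 143 and 299 genes against A2S, A2 and AS. Leaving out 1 library gave 127 to 405, 55 to 276 and 230 to 1414. Without the count filter the numbers against A2 and AS were 590 and 848, DESeq2 gave 372 against AS, and the compared groups alone gave 109. Cxcl3 reversed against AS, to -5.15, without S2 day 6 A, in a range of -5.15 to 8.86 over the libraries left out. The cause was not tested. Of 117 named called genes, DESeq2 kept 99, kept feeder cells 104, and leaving out day 4 A, day 4 B, day 6 A or day 6 B kept 77, 76, 63 and 91.

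The letters A and B share no stated origin, and a replicate block gave 1677 genes in S2 (755 higher, 922 lower), 396 against A2S, 215 against A2 and 620 against AS. Day 6 A and day 4 A had the most influence on the counts within S2. A lone library left in a group is assumed to vary like the other groups. Depth limits genes of a few UMIs, such as Pou5f1, Sox2 and Zfp42.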

Other observations

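Cytosolic ribosomal protein genes were the other group with a high share of called members. Of 39 tested, 21 rose, with a median log2 change of 0.27. Rpl37 was at 1033 and 1217 CPM at day 4 and 2355 and 1838.5 CPM at day 6 (0.90 ± 0.14, adjusted p = 7.11e-05 by edgeR). The count was 9 without day 6 A, 11 without day 4 A and 12 without day 4 B. Many of these genes have processed copies that can share reads. Of 42 tested oxidative phosphorylation genes 10 rose, among them the respiratory complex subunits Ndufc1 and Cox7c, but without day 4 B or day 6 A edgeR called 0 and without day 4 A it called 5. In the full fit 14 of the 42 had an unadjusted p under 0.05 and DESeq2 called 8.

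Imprinted genes went both ways, with 4 higher and 5 lower of 22 tested. Meg3, a long noncoding RNA of the Dlk1 locus, rose from 188 and 304 CPM to 490 and 522 CPM (1.05 ± 0.18, adjusted p = 0.000204 by edgeR), and was at 834 CPM in listed feeder cells against 388 CPM in kept cells. Plagl1, a zinc-finger gene, went from 307 and 242 CPM to 147 and 149 CPM (fell by 0.90, adjusted p = 0.0001). Both kept their calls without each library. The lower members numbered 2 without day 4 A, 2 without day 6 A, 3 without day 4 B and 1 without day 6 B.

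Of 26 tested Hox genes, which record position along the body axis, Hoxc8 alone passed the test, from 16.2 and 17.6 CPM to 6.06 and 5.14 CPM (fell by 1.57, adjusted p = 0.00185), and it kept its call without each library. The de novo DNA methyltransferase Dnmt3a rose from 31.0 and 29.5 CPM to 47.2 and 50.2 CPM (0.68 ± 0.17, adjusted p = 0.00722), with an adjusted p of 0.0568 without day 4 A and 0.0511 without day 4 B. Of 32 interferon-response genes 1 passed the test, Bst2, at 4.14 and 10.3 CPM and then 25.8 and 16.2 CPM (adjusted p = 0.0366), and its call was lost without day 4 A (0.364) or day 6 A (0.342). Of 27 tested germline genes 8 had more than 3 UMIs on either day, and the 2 called higher, Dnd1 and Ddx4, had 0 UMIs at day 4 and 11 and 7 at day 6. Each lost its call in 3 of the 4 fits without 1 library, with adjusted p up to 0.108 for Dnd1 (without day 4 A) and 0.464 for Ddx4 (without day 6 A). Ddx4 also lost it by DESeq2 (0.075) and with listed cells kept (0.0506). Neither was called without day 4 A or without day 4 B.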
